A study of Mus musculus with 12 samples.

Results

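The nuclear-encoded subunits of the mitochondrial respiratory chain and ATP synthase were followed across RNA sequencing libraries of mouse brain perivascular macrophages. Members were the rows whose symbol begins with Nduf (letter a, b, c, s or v and a number), Sdh (a to d), Uqcr, Cyc1, Cox4 to Cox8 followed by a, b or c, or Atp5, without pseudogenes and assembly factors. The rule uses names and no measured value. It took 83 of the 17358 genes in the table: 39 of complex I, 4 of complex II, 9 of complex III, 14 of complex IV and 17 of complex V, the ATP synthase. Atp5s is listed by RefSeq as Dmac2l and Atp5f1 as Atp5pb, and the rule's names leave out Cox4i1, Cox4i2 and Ndufab1. The mitochondrially encoded subunits were not analysed here.

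The aged group held 5 libraries from mice of 18 months and the young group 7 libraries from adults of 3 months, all C57BL and with no transgene or treatment named. Libraries were made by SMART-seq2, which primes on poly(A) tails and copies full-length cDNA from little RNA. Samples are named biological replicates in the series text, but animals or cells per library are not numbered, and p-values therefore speak only for the spread among these 12 libraries. Sex, batch and the markers used for sorting are not given in the sources used here.

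Complex I takes electrons from NADH and complex II takes them from succinate. Complex III passes them through cytochrome c to complex IV, which reduces oxygen. Complexes I, III and IV pump protons across the inner membrane, and ATP synthase uses their return to make ATP. In macrophages this chain supports resident and tissue-repair states, and its succinate and reactive oxygen also take part in inflammatory signalling.

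Library totals ran from 23214836 to 30628787 estimated counts, so 3 counts, taken as the detection floor, were worth 0.098 to 0.129 CPM (counts scaled to a common library size). All 10 perivascular macrophage markers, such as Mrc1 and Cd163, were above the floor in every library. Their summed level was 10600 to 17000 normalised CPM in aged and 11300 to 21000 in young libraries. Microglial markers summed to 3700 to 5560 against 3550 to 6840, with 6 of 8 above the floor in every library. Choroid plexus markers summed to 200 to 1110 in aged and 59.4 to 147 in young libraries, without overlap, and their part in the results below was not tested. On the first principal component of all tested genes (15.5% of the variance), aged libraries 1, 3 and 4 lay at -163.8, -135.1 and -153.2 and the other 9 between -34 and 104.

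Promoter sequences of 5 subunit genes are shown because these genes carry the lowest p-values or the largest fold changes described below. Each window runs from 250 bases before to 50 bases after a transcription start in RefSeq (GRCm38.p6), 5′ to 3′ on the gene's strand. Capitals mark the motifs ACTACANNT (ZNF143), AAGATGGCG (YY1), GCATGCGC (NRF1), CCGGAAG (ETS factors such as GABP) and TATAAA (the TATA box), searched on both strands, so that a match on the other strand is shown as its reverse complement. The windows are chr19:4012706-4013005 (minus strand) for Ndufv1, chr10:80249199-80249498 (plus) for Ndufs7, chr13:86046746-86047045 (minus) for Cox7c, chr7:140900397-140900696 (minus) for Cox8b and chr9:44920693-44920992 (minus) for Atp5l. The Ndufs7 window lies at a start inside the annotated gene span.
Ndufv1: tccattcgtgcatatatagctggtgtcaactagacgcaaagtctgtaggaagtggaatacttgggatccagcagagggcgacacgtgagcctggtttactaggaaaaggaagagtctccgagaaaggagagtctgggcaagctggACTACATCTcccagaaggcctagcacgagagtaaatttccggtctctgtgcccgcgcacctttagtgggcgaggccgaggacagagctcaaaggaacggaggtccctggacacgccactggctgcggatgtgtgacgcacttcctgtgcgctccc
Ndufs7: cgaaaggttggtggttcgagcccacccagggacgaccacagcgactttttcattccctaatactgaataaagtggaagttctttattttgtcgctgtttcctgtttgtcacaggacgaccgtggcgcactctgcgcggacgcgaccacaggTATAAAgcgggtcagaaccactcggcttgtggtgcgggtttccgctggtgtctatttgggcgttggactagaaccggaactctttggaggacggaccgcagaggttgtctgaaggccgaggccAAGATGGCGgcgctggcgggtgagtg
Cox7c: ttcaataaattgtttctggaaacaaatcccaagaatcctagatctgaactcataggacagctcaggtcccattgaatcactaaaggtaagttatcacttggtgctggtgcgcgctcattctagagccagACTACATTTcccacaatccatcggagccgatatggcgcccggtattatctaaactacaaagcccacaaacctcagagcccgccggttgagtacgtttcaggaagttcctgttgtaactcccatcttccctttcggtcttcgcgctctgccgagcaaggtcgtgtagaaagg
Cox8b: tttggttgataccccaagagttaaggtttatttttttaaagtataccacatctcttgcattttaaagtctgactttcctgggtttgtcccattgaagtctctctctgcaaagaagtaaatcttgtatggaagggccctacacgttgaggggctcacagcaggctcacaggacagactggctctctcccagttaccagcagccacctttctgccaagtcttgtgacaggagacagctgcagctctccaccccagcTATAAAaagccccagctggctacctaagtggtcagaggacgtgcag
Atp5l: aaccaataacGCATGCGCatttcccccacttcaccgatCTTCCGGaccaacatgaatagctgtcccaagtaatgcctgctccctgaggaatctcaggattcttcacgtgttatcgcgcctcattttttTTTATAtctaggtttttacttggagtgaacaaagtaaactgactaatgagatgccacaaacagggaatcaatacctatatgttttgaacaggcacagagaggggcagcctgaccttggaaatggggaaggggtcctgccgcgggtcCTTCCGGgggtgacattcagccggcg
The Cox8b window holds TATAAA near its 3′ end, and the Ndufs7 window holds AAGATGGCG there, both past the transcription start used for the window.

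A promoter window was found for 68 of the 83 members. The NRF1 motif was in 10 of the 68 windows (14.7%, against 3.05% of 27025 promoters of all genes), the ETS motif in 16 (23.5% against 9.93%) and the YY1 motif in 7 (10.3% against 1.64%). The ZNF143 motif was in 7 (10.3% against 4.78%) and TATAAA in 6 (8.82% against 15.7%), both motifs having been added after the sequences were seen. NRF1, GABP and YY1 are transcription factors known for many respiratory genes. A match says only that these letters are in the window.

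Subunit genes were among the well-expressed genes of these cells. On the per-length scale (FPKM, fragments scaled by transcript length and library size), the median of the members' mean levels was 261, against 7.57 for all tested genes, and 22 of the 83 were above 500 FPKM. Cox6b1, a small subunit of complex IV, was highest at 1561 ± 462 FPKM (SD, n = 12). The leading pairs of the other complexes were Uqcrb (1078 ± 164 FPKM) and Uqcr11 (1053 ± 434), small subunits of complex III, Atp5j (1004 ± 184) and Atp5l (993 ± 216), which belong to the peripheral stalk and the membrane part of ATP synthase, and Ndufa4 (945 ± 231) and Ndufa3 (914 ± 216). Cox7c followed in complex IV at 941 ± 335 FPKM. Ndufa4 is named for complex I and is found with complex IV. In complex II, which has no small accessory subunits, Sdhb (253 ± 65.8 FPKM) and Sdhc (160 ± 62.6) led.

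Several catalytic and core subunits lay at the low end of the same FPKM scale, and others did not. Ndufs1 was at 12.97 ± 6.28 FPKM, Ndufv1 at 16.1 ± 17.5, Sdha at 29.8 ± 8.47, Cyc1 at 34.7 ± 29.3 and Uqcrc2 at 36.1 ± 17.6. The ATP synthase head subunits Atp5a1 and Atp5b were at 41.7 ± 19.1 and 59.97 ± 40.9 FPKM. Atp5c1 and Atp5e, of the central stalk, were at 456 ± 84.8 and 455 ± 127, and Atp5d of the same stalk was at 75.8 ± 33.1. Sdhb, the iron-sulphur subunit of complex II, was above both membrane anchors of that complex. Across the 83 members, mean FPKM and transcript length had a Spearman rho of -0.55, given as a description over genes that share libraries. Length was itself computed from the counts and these FPKM values, so the rho does not compare independent measures. The members' median length was 595 bases, against 2615 for all tested genes, and the part of length in the FPKM order was not tested.

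**Figure D1:**
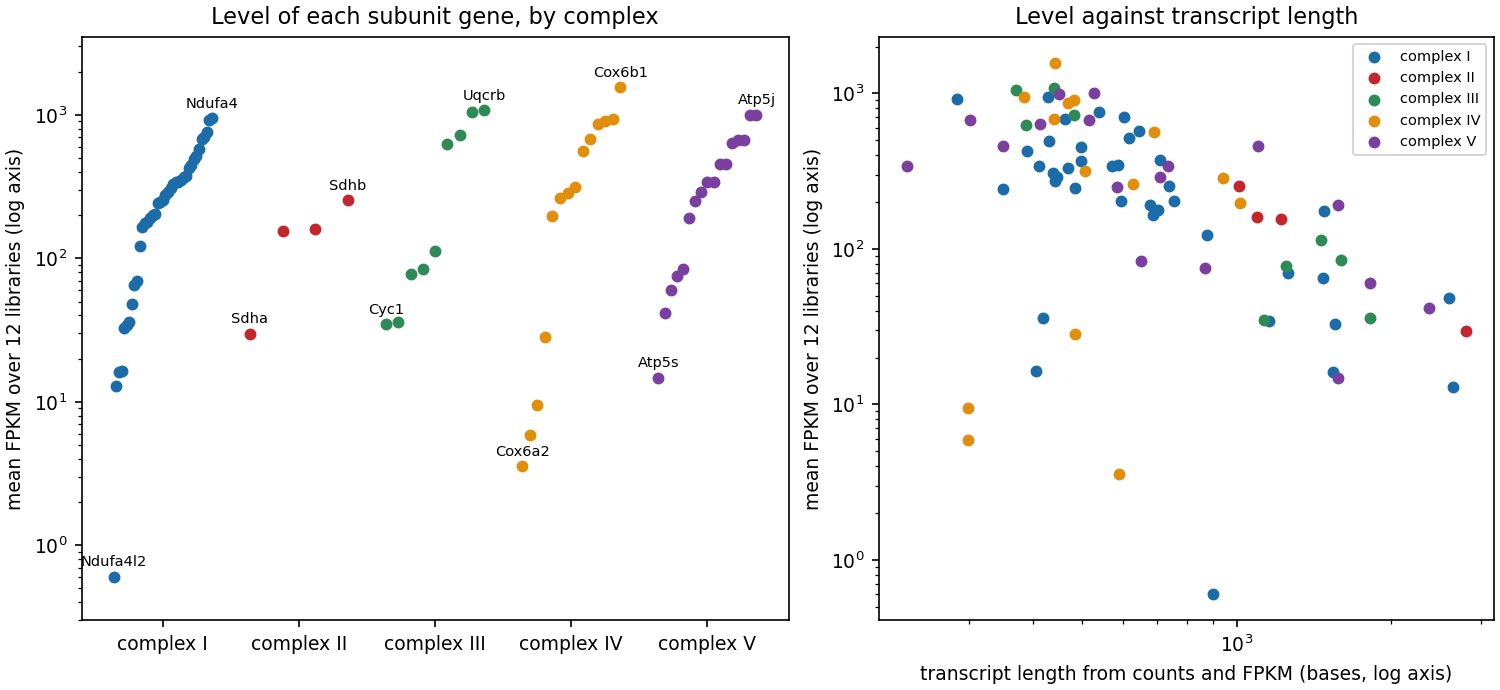
Mean FPKM over the 12 libraries (log axis) of each subunit gene, by complex (left, points ordered by level) and against transcript length in bases (right, log axis). Length was computed from counts and FPKM. The small Cox6b1 is highest at 1561 FPKM and Ndufa4l2 lowest at 0.604. The low end of the other members holds long transcripts such as Ndufs1 and Sdha and short ones such as Cox6a2, Cox7a1 and Cox8b.

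Paralogous isoforms differed widely in level. In complex IV the widely used Cox6a1 (865 ± 263 FPKM), Cox7a2 (563 ± 167) and Cox8a (913 ± 237) stood against Cox6a2 (3.56 ± 4.51), Cox7a1 (5.86 ± 10.04) and Cox8b (9.51 ± 15.7), the isoforms known from heart and skeletal muscle. Cox6b1 at 1561 FPKM stood against the testis isoform Cox6b2 at 28.4 ± 16.7 FPKM. Cox7a2l, a factor that joins complexes III and IV in supercomplexes, was at 198 ± 61.4 FPKM. The genes for the c ring, Atp5g1, Atp5g2 and Atp5g3, encode the same mature protein and were at 343 ± 156, 250.6 ± 80.0 and 83.9 ± 27.3 FPKM, an order in which Atp5g1 and Atp5g2 lay within their spread.

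Of the 83 members, 81 passed the filter on low counts and were tested. Ndufa4l2, a hypoxia-responsive relative of Ndufa4, was detected in young library 7 alone, with 196 counts. Cox7a1 had 241 counts in aged library 1, 122 in young library 2, 1 in young library 3, 52 in young library 5, 176 in young library 6 and 0 elsewhere. No member was called between aged and young libraries (edgeR quasi-likelihood test, Benjamini-Hochberg adjusted p, threshold 0.05), where 1 of the 9550 tested genes was called (0.0105%). At an unadjusted p under 0.05 there were 6 members, 3 higher and 3 lower in aged libraries, which is 7.41% against 5.97% of all tested genes. DESeq2 called 2 members, Ndufv1 and Ndufs7, where it called 1.27% of genes.

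The fold changes of the 81 tested members centred on 0, with 42 positive and 39 negative and a median log2 value of 0.01 (all tested genes, -0.01). By complex the median log2 fold change, aged over young, was -0.01 in complex I (18 positive, 20 negative), -0.24 in complex II (1 and 3), 0.10 in complex III (5 and 4), 0.38 in complex IV (9 and 4) and 0.08 in complex V (9 and 8). With 1 aged library left out at a time, the complex IV median fell most without library 4, to 0.09. It was 0.30 without aged library 1, 0.53 without 2, 0.41 without 3 and 0.44 without 5. Without aged libraries 1, 3 and 4 together, 4 members of complex IV were positive and 10 negative. Their median was -0.12 over the 14 members tested then (-0.11 over the 13 tested with all libraries). In that fit the median was -0.23 in complex I, -0.12 in complex II, -0.22 in complex III and 0.05 in complex V. The median of all genes tested then was -0.09.

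**Figure D2:**
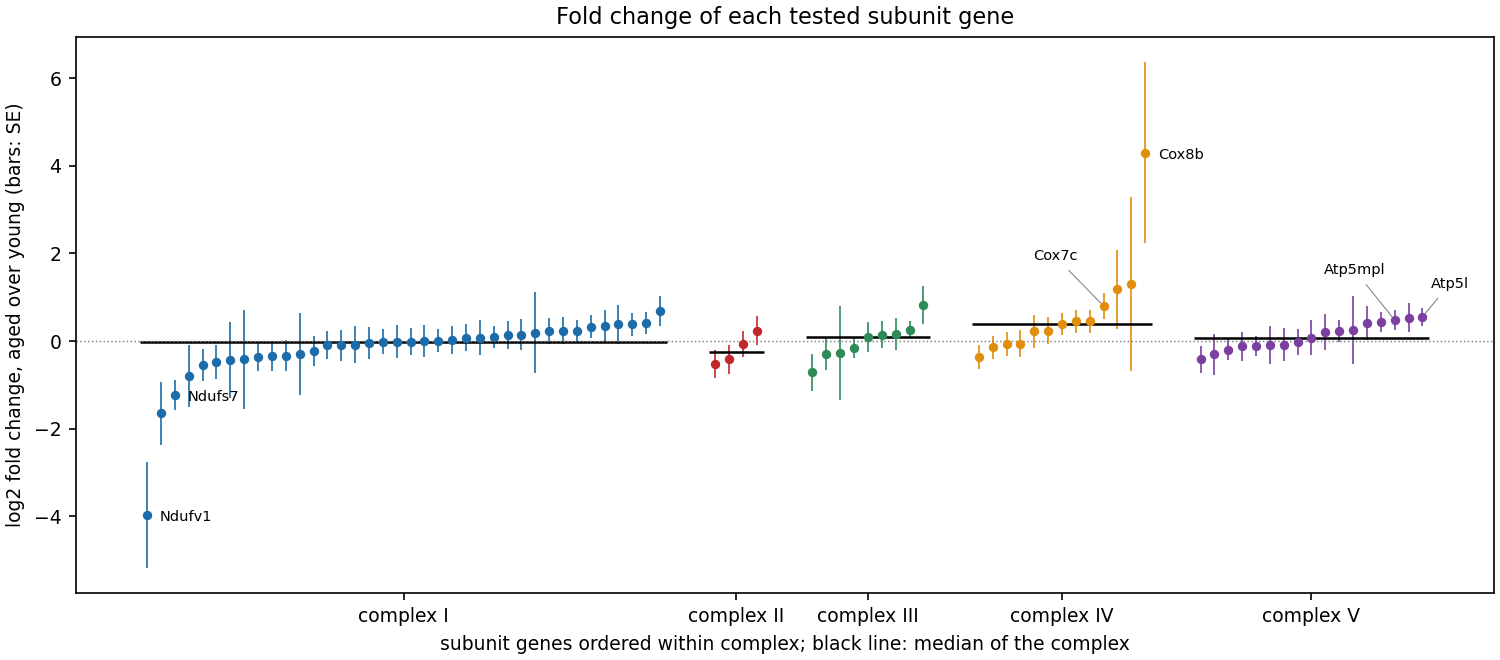
Log2 fold change (aged over young, bars SE) of the 81 tested subunit genes, ordered within each complex, with the complex median as a black line. Most genes lie near 0, and Ndufv1 at -3.97 and Cox8b at 4.30 lie farthest from it.

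In complex I the members with an unadjusted p under 0.05 were all lower in aged libraries, and Ndufv1 and Ndufs7 had the smallest p-values. Both belong to the conserved core that carries electrons from NADH to ubiquinone: Ndufv1 holds the NADH site with its flavin, and Ndufs7 holds an iron-sulphur cluster close to the ubiquinone site. Low values were not shared by the whole core. Among its other subunits the log2 fold change was 0.19 for Ndufs1, 0.00 for Ndufs3, -0.10 for Ndufv2 and -0.34 for Ndufs8.

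Ndufv1 was at 1.61, 0.337, 5.46, 0 and 4.99 normalised CPM in aged libraries 1 to 5. In young libraries it ran from 13.7 through a median of 38.7 to 86.6. Every aged library was below every young one, and Ndufv1 was the only member without overlap, where 0.272% of tested genes were all lower in aged libraries and 0.325% all higher. The aged counts were 40, 10, 109, 0 and 149, and the young ones ran from 415 to 2533. The mean was 2.48 ± 2.58 in aged and 38.9 ± 23.7 normalised CPM in young libraries (SD), 15.7-fold lower in aged ones, with a log2 fold change of -3.97 ± 1.2 (SE) and an edgeR adjusted p of 0.352 (unadjusted p = 0.00428). The call depended on the tool: the adjusted p was 0.00299 with DESeq2, 0.0361 with edgeR's bias-adjusted mode (1 member called, 0.398% of genes) and 0.047 with limma on log2(FPKM + 1) (1 member, 0.0628% of genes). It was 0.31 with limma voom, 0.37 with edgeR under another scaling and 0.19 with edgeR without the filter on low counts. Ndufv1 was also not called by edgeR when any 1 library was left out. In the fit that omits aged libraries 1, 3 and 4 its fold change was -3.90 on the log2 scale. Ndufv1 lies on chromosome 19 from 4007499 to 4012755 and overlaps no other annotated gene.

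Ndufs7 was at 83.4, 91.55, 64.5, 75.0 and 41.9 normalised CPM in aged libraries 1 to 5. In young libraries it ran from 71.8 through 162 to 308.5. The 5 aged libraries were below 6 of the 7 young ones, and young library 4 lay among them. The log2 fold change of Ndufs7 was -1.23 ± 0.35 (SE); the edgeR adjusted p was 0.311 (unadjusted p = 0.00287) and the DESeq2 adjusted p 0.0443. Without aged libraries 1, 3 and 4 the log2 value was -1.32.

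**Figure D3:**
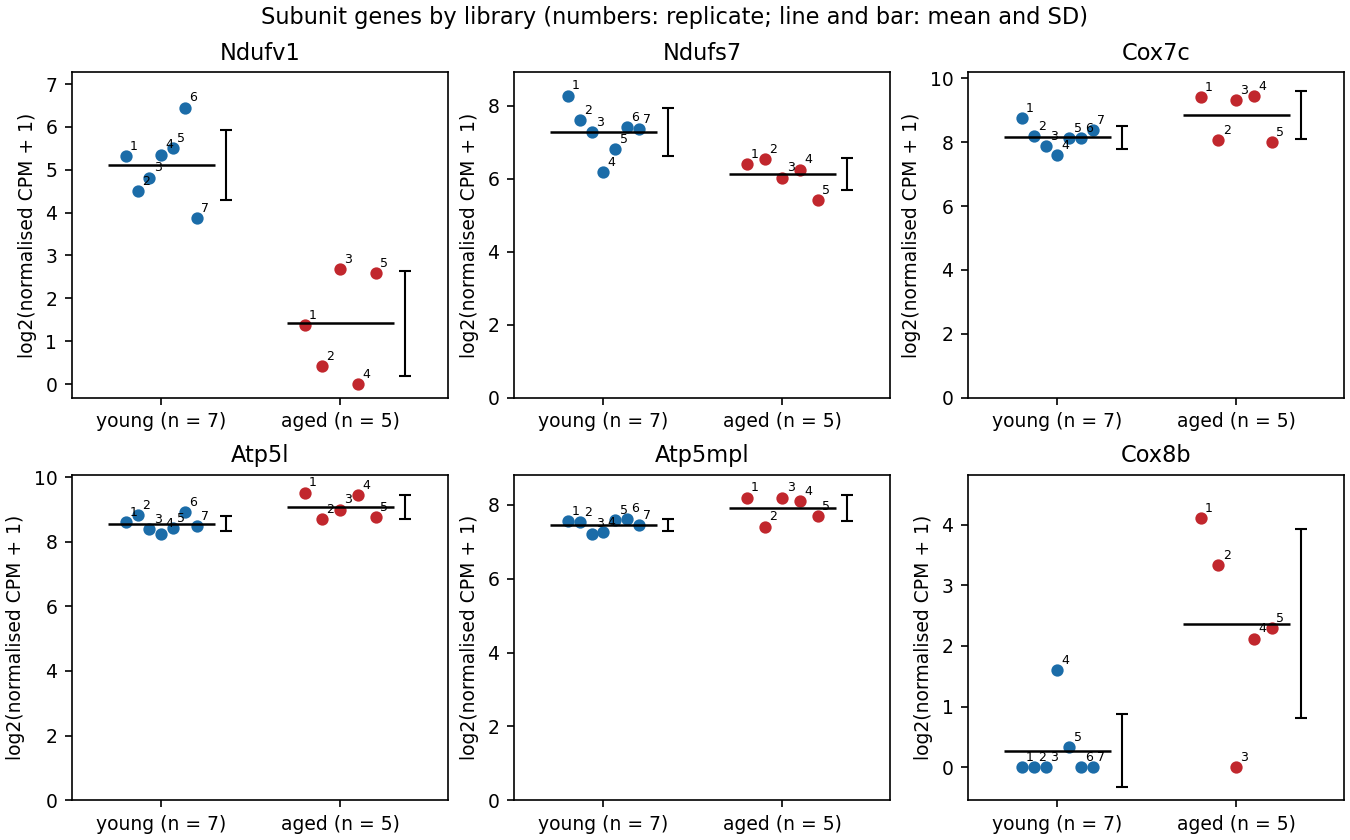
Log2(normalised CPM + 1) of 6 subunit genes, Ndufv1, Ndufs7, Cox7c, Atp5l, Atp5mpl and Cox8b, in young (blue, n = 7) and aged (red, n = 5) libraries, with replicate numbers, group means (lines) and SD (bars). Ndufv1 is the 1 gene whose groups do not overlap, and aged libraries 1, 3 and 4 set the higher aged means of Cox7c and Atp5l.

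Complex II is also an enzyme of the tricarboxylic acid cycle. Its flavin subunit Sdha was at 64.6, 96.1, 119, 63.6 and 117 normalised CPM in aged libraries and from 42.4 through 71.9 to 101 in young ones. The iron-sulphur subunit Sdhb was at 259, 317, 336, 242 and 115 against 164 through 262 to 375. Both overlapped broadly between groups, with log2 fold changes of 0.24 ± 0.34 and -0.07 ± 0.29 (SE). The membrane anchors were lower in part of the aged libraries: Sdhc was at 72.9, 277, 105, 177 and 102 normalised CPM against 120 through 186 to 279. Sdhd was at 66.7, 215, 208, 97.7 and 168 against 166 through 184 to 367. Aged libraries 1, 3 and 5 lay under all young ones for Sdhc, and 1 and 4 for Sdhd. Their log2 fold changes were -0.42 ± 0.33 and -0.53 ± 0.32, with edgeR adjusted p-values of 0.999, and that of Sdhc was -0.04 without aged libraries 1, 3 and 4.

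In complex III the 2 core proteins had opposite signs. Uqcrc2 was at 47.6, 66.5, 158, 107 and 72.1 normalised CPM in aged libraries against 24.3 through 40.6 to 96.3 in young ones. Uqcrc1 was at 67.9, 209, 56.2, 114 and 45.1 against 63.0 through 147 to 286. The groups overlapped for both, and the log2 fold changes were 0.83 ± 0.43 (SE, edgeR adjusted p = 0.939) and -0.71 ± 0.42 (adjusted p = 0.999). Uqcrc2 overlaps the protein-coding gene Pdzd9. Uqcrb, which was among the steadiest members, varied 1.94-fold between its lowest and highest library.

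In complex IV, Cox7c was at 675, 266, 638, 687 and 257 normalised CPM in aged libraries 1 to 5 and from 191 through 279 to 430 in young ones. Aged libraries 1, 3 and 4 lay above all young ones, and 2 and 5 lay among them. Its log2 fold change of 0.80 ± 0.29 (SE, edgeR adjusted p = 0.512) became -0.15 without aged libraries 1, 3 and 4. Cox7c is a small accessory subunit.

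Cox8b was at 16.2, 9.07, 0, 3.35 and 3.88 normalised CPM in aged libraries. Among young libraries it was at 2.03 in library 4, 0.254 in library 5 and 0 in the other 5. In 4 aged libraries it lay above every young one, and aged library 3 had no count. The fitted log2 fold change of 4.30 ± 2.07 (SE, edgeR adjusted p = 0.847) rests on 858 counts in aged and 73 in young libraries and depends on how zeros are handled. Cox6b2 was at 9.98, 17.8, 30.2, 35.8 and 12.6 against 3.78 through 8.44 to 18.5 normalised CPM, with overlap (log2 fold change 1.18 ± 0.91, adjusted p = 0.999 by edgeR). Cox6a2, which overlaps the integrin gene Itgad, was at 9.01, 3.34, 0, 0 and 3.42 normalised CPM in aged libraries and at or below 3.91 in young ones. Of the widely used counterparts, Cox6b1 had a log2 fold change of 0.24, Cox6a1 of -0.36, Cox7a2 of 0.45 and Cox8a of -0.14, and that of Cox7a2l was -0.06.

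In ATP synthase the 2 members with an unadjusted p under 0.05 were small membrane subunits. Atp5l, subunit g, was at 733.5, 416, 509.5, 695 and 434.5 normalised CPM in aged libraries and from 304 through 360.0 to 484 in young ones. Atp5mpl was at 293, 169, 293, 272 and 205 against 148 through 184 to 197. Aged libraries 1, 3 and 4 lay above all young ones for both, as did aged library 5 for Atp5mpl. The log2 fold changes were 0.55 ± 0.21 (SE, edgeR adjusted p = 0.578) and 0.48 ± 0.22 (adjusted p = 0.789), and 0.15 and 0.08 without aged libraries 1, 3 and 4. Atp5j, of the peripheral stalk, had a log2 fold change of 0.43 and overlaps Gabpa. The c ring genes Atp5g1, Atp5g2 and Atp5g3 had values of 0.08, -0.42 and 0.21. Those of the catalytic head had opposite signs, with Atp5a1 at 0.41 and Atp5b at -0.30. Atp5c1, Atp5d and Atp5e of the central stalk were at -0.11, -0.09 and -0.12.

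Levels of the members varied between single libraries. Young library 4 held the lowest normalised CPM of 27 of the 81 tested members (33.3%, against 4.30% of all tested genes), and aged library 5 that of 18 (22.2% against 6.32%). Young library 1 held the highest of 16 (19.8% against 10.4% of all tested genes) and aged library 4 of 18 (22.2% against 12.2%). The summed normalised CPM of the 83 members ran from 9966 in young library 4 and 11551 in aged library 5 to 22220 in young library 1. It was 17236 ± 3452 in aged and 16318 ± 4180 in young libraries (SD), with overlap. On the FPKM scale young library 4 was also the lowest of the 12 in the sums of complexes I, III, IV and V (8338, 3030, 4938 and 5416 FPKM). Its TMM scaling factor, 1.245, was the highest of the 12. That of aged library 5 was 1.128 and that of young library 5 was 1.172. Young library 5 held the lowest value of 4 members, and its summed normalised CPM was 12927. The factor was 0.886 in young library 1 and 0.875 in aged library 4, where the sums were 22220 and 20875. It was lowest in aged library 3, at 0.864, with a sum of 17404. What part the scaling has in these sums was not tested. In bulk samples fewer cells of a type and less RNA per cell cannot be told apart. Without young library 4 and aged library 5, a setting chosen after seeing the data, no member was called and the median log2 fold change was 0.06.

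**Figure D4:**
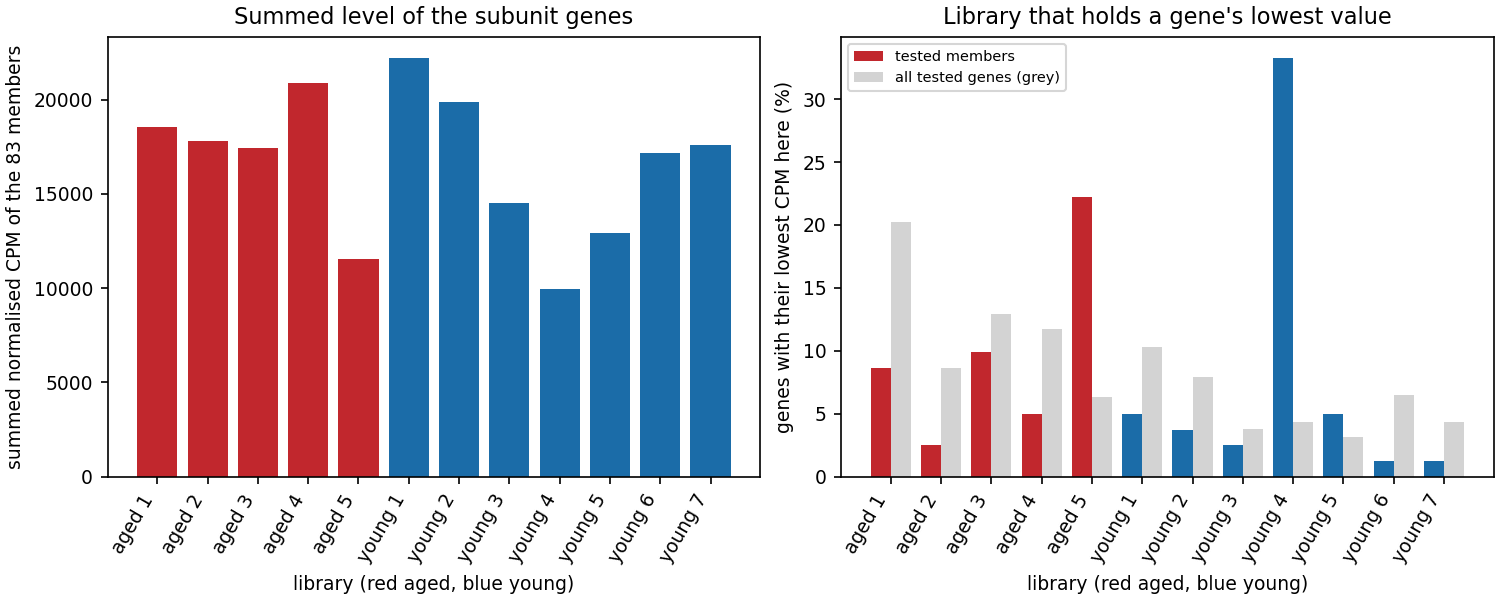
Summed normalised CPM of the 83 subunit genes in each library (left) and the percent of tested members (coloured) and of all tested genes (grey) whose lowest value lies in that library (right), with aged libraries in red and young in blue. Young library 4 and aged library 5 have the lowest sums, 9966 and 11551, and hold the lowest values of 33.3% and 22.2% of members.

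**Figure D5:**
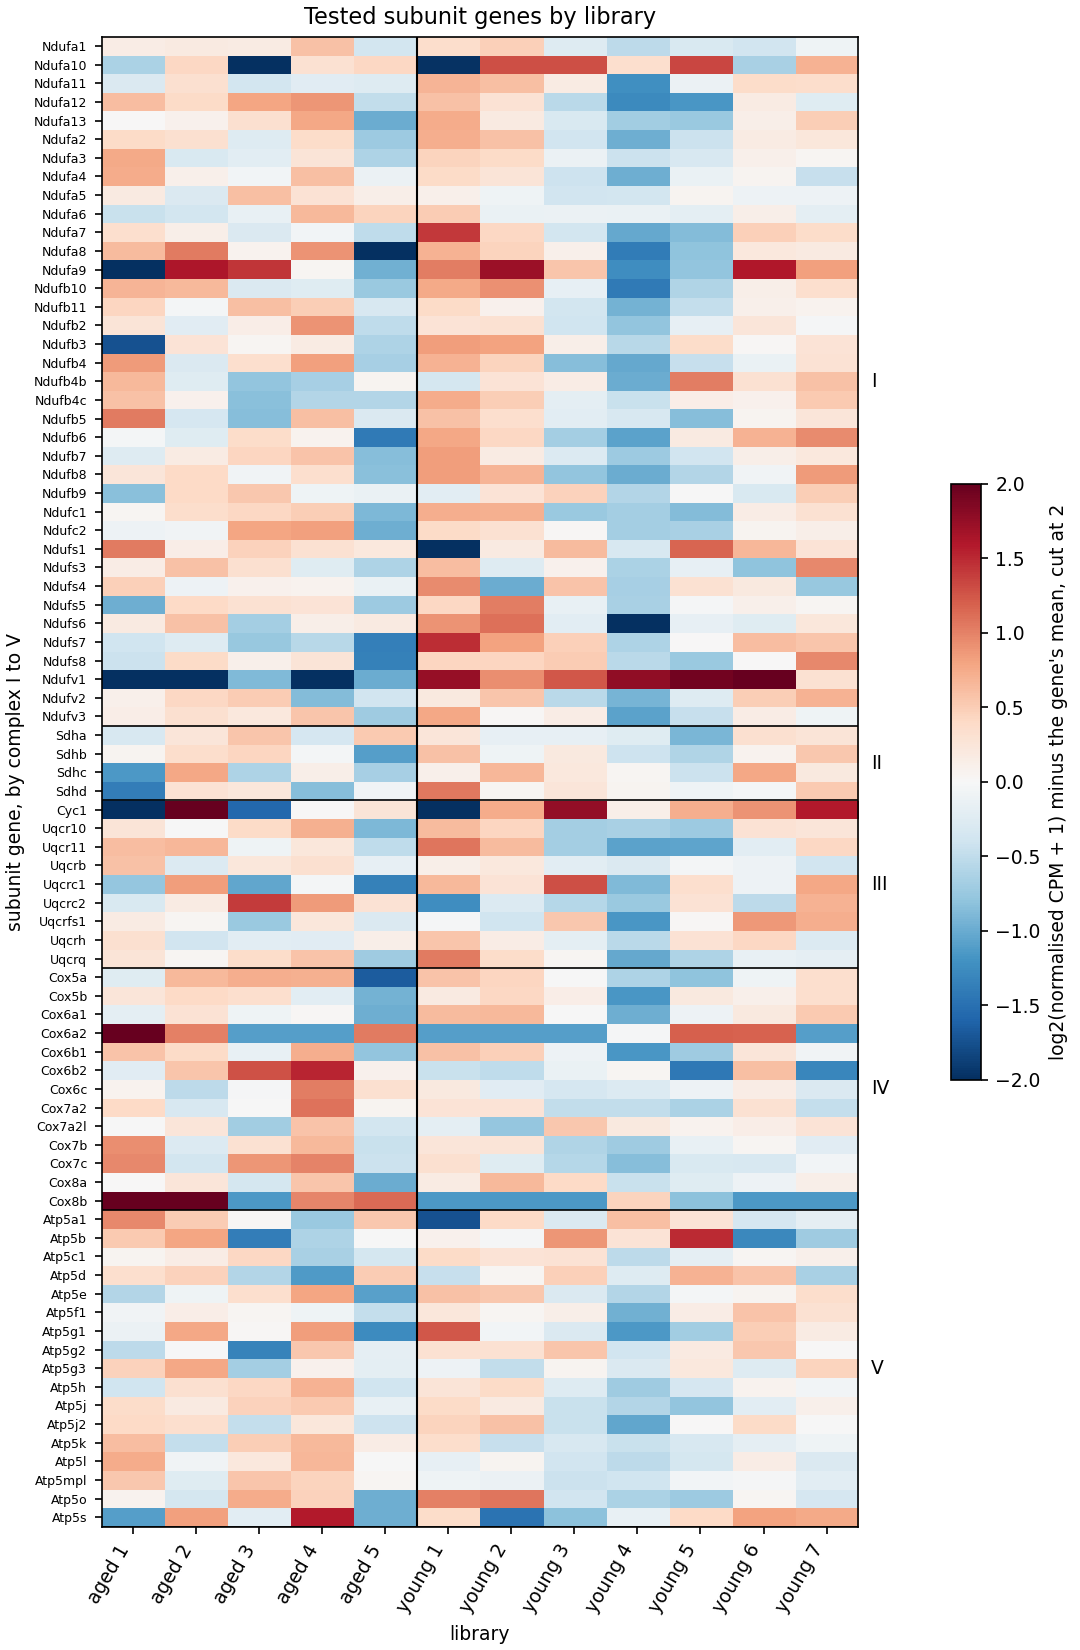
Log2(normalised CPM + 1) of the tested subunit genes (1 left out) minus each gene's mean over the 12 libraries, in columns by library (aged left of the line) and rows by complex, with colour limits at -2 and 2. Most members of complexes I, III, IV and V are low in the columns of young library 4 and aged library 5, and the row of Ndufv1 separates the age groups.

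Single members dropped out of single libraries. Of the 76 members with a mean of at least 20 normalised CPM, 4 had a library at 0. Ndufa9, an accessory subunit of complex I, had 0 counts in aged library 1, where 3 counts would be 0.112 CPM, and up to 5064 elsewhere. Cyc1, the haem subunit cytochrome c1, had 0 in young library 1 and up to 3287 counts in aged library 2. Ndufs1 had 0 in young library 1 and Ndufv1 in aged library 4. In all, 6 of the 81 tested members (7.41%) had a library at 0, against 42.1% of all tested genes.

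Other genes of the pathway were read from 5 lists, and none of their genes was called. The list of genes outside the symbol rule, not all of them subunits, had Cox4i1, Ndufab1, Cycs, Usmg5, Atpif1 and Fmc1 tested. Of these, 5 of 6 were positive, led by Usmg5, a small ATP synthase subunit, with a log2 fold change of 0.64 ± 0.29 (SE, edgeR adjusted p = 0.789). Without aged libraries 1, 3 and 4, the aged group was libraries 2 and 5 alone. In that fit the signs of that list turned, to 1 positive and 5 negative (median -0.11, in place of 0.13). Of complex I assembly factors 8 of 14 were positive (median 0.08), and the smallest p belonged to Timmdc1 at 0.51 ± 0.42. Of the assembly factors of complexes II to V 17 of 29 were positive (median 0.16), and Cox19, a copper-handling factor of complex IV, was at 8.55 ± 6.74 in aged and 49.2 ± 25.8 normalised CPM in young libraries (SD; log2 fold change -2.52 ± 0.91, edgeR adjusted p = 0.511). That list turned as well without aged libraries 1, 3 and 4, to 12 positive and 19 negative (median -0.32). Of the transcriptional regulators 6 of 10 were positive, and the smallest p belonged to Ppargc1b, a coactivator of respiratory genes (log2 fold change 3.60 ± 1.87, edgeR adjusted p = 0.936). It was at 0.0805, 1.25, 0.100, 24.2 and 4.49 normalised CPM in aged libraries and from 0 to 2.44 in young ones, so that aged library 4 made up most of the aged level. Among tricarboxylic acid cycle enzymes 9 of 13 were negative, with a median log2 value of -0.51 that was -0.24 without aged libraries 1, 3 and 4.

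Ogdh, the 2-oxoglutarate dehydrogenase subunit of that cycle, had the smallest p of the 5 lists. It was at 219, 122, 367, 189 and 240.0 normalised CPM in aged libraries and from 71.0 to 148.5 in young ones. Aged library 2 lay among the young libraries and the other 4 above them. Ogdh had a log2 fold change of 1.21 ± 0.30 (SE; edgeR adjusted p = 0.208, unadjusted p = 0.000892).

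Of the 83 members, 27 overlap another annotated gene and 16 a protein-coding one, judged by gene start and end and not by exons. This chemistry does not mark the strand, so reads from exon sequence that overlapping genes share cannot be told apart. How many members share such sequence was not examined. Ndufb4b and Ndufb4c are near-identical copies of Ndufb4, so the split of reads among the 3 genes is uncertain.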

How the data were processed

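RNA sequencing of 12 libraries was read from 1 deposited table of 17358 genes. The authors deposited estimated counts, of which 88.2% to 90.6% per library were whole, and normalised values with no named unit, taken here to be FPKM, since each value falls with library total and with transcript length. The submitters' processing notes list DESeq2 1.4.5, RSEM 1.2.12, HISAT2 2.0.4 and Bowtie2 2.2.5 with GRCm38 (mm10). Their roles and the annotation are not given in the sources used here. Amplified copies count as separate reads, since no molecular identifiers were used, and floors cover counting error only.

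Estimated counts were rounded and tested over all genes with edgeR 4.0.16 in R 4.3.3 (quasi-likelihood test, TMM factors, filterByExpr on group, robust, the version's default legacy estimation, Benjamini-Hochberg adjusted p under 0.05). The test was checked on simulated data. Levels are TMM-normalised CPM or FPKM, with SD over libraries, and a positive log2 fold change is higher in aged libraries. DESeq2 1.42.0, limma 3.58.1 (voom, and log2(FPKM + 1) with a pseudocount of 1), other scalings and libraries left out were alternatives. Damaged or repeated symbols (24) were replaced through Entrez identifiers. All 83 members matched a RefSeq table of GRCm38.p6, which gave coordinates (1-based), overlaps and promoters.

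Named were, in each complex, the 2 members with the highest FPKM and the 2 with the smallest p, members whose groups do not overlap, paralogous isoforms, complex II, filtered members and the gene of smallest p in each pathway list. Members and lists were chosen with earlier results of these data known. Same-numbered libraries correlated at -0.03 to 0.10, so the numbers were not taken as pairs. The values of 1 member are not reported here.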

Additional observations from a re-analysis of the deposited data

Results flagged for a closer look

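Among 28 subunit genes with levels examined in both groups (56 groups), 2 young groups held a library far from the others. This is 3.57%, where normally spread values would give about 1 in 20. Cox8b was at 2.03 normalised CPM in young library 4, with the next young library at 0.254 and the rest without counts. That rate therefore does not apply to Cox8b. Ndufv1 was at 86.6 normalised CPM in young library 6, with the next at 44.3.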

How the results depend on the processing

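The edgeR test called 1 gene and 0 subunit genes. DESeq2 called 121 genes and 2 subunit genes, edgeR's bias-adjusted mode 38 and 1, limma on log2(FPKM + 1) 6 and 1, voom 2 genes, no filter on low counts 13 genes, and the fit without aged libraries 1, 3 and 4 called 0 genes. Without aged library 5 and young library 4, chosen after seeing the data, 3 genes were called. Leaving out 1 library at a time gave 0 to 75 genes, with 75 on leaving out aged library 2, and 0 subunit genes each time. The cause of these differences was not tested.

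The median log2 fold change of the members ranged from -0.14 to 0.12 over the 22 alternatives, and that of complex IV, over its 13 members tested with all libraries, from -0.11 to 0.53, lowest without aged libraries 1, 3 and 4. Cox7c reversed to -0.15 in that fit. Over the alternatives the log2 fold change of Ndufv1 ranged from -5.35 to -3.47 and of Ndufs7 from -1.36 to -1.04. Cox8b was not tested without young library 4. With the replicate number as a block, 1 gene and 0 subunit genes were called, and 2 of 5 aged libraries correlated best with their own number. Libraries at 0 counts numbered 11 of 12 for Ndufa4l2, 7 for Cox7a1 and 6 each for Cox8b and Cox6a2, and what part depth has in this was not tested.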
